A study of Oncorhynchus mykiss with 18 samples.

Results

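Whole rainbow trout alevins (Oncorhynchus mykiss) held in 1.57 ng/L 17α-ethinylestradiol (EE2), a synthetic estrogen used in contraceptive pills, were compared with alevins held in 1.13 ng/L EE2. Both values are measured concentrations. The comparison takes the 3 libraries labelled 1.57 ng/L and the 3 labelled 1.13 ng/L, which are 6 of the 18 libraries analysed. Each library is RNA from a pool of 3 whole alevins, and the pools of a group carry the letters A, B and C. Exposure in both groups began at hatch and lasted 96 hours in flow-through 9-L tanks at 14 °C, so the fish were sampled at 4 days post-hatch, while they still carry a yolk sac. The other 12 libraries come from a solvent group in 0.01% DMSO and from groups at 3 higher concentrations (6.22 ng/L, then 16.3 ng/L, then 55.1 ng/L), with 3 pools each. No strain, sex or genotype is given in the labels, and a further 169 ng/L group of the design text was not analysed here. Whether pools of 1 group shared a tank is left unsaid by the labels. The p-values below measure spread between pools within groups, in the main fit over all 18 libraries. If pools of a group shared a tank, spread between tanks was not measured and cannot be told apart from concentration.

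In egg-laying fish, estrogen from the ovary reaches the liver and binds the nuclear estrogen receptors. The liver then makes vitellogenins, the yolk precursors, and zona pellucida proteins, which build the egg envelope, and it makes more of the receptor Esr1 itself. Male and juvenile fish have the same liver genes and are nearly silent for them until an estrogen is given, which is why these transcripts serve as markers of estrogen exposure.

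The 2 groups were sequenced to like depth. The libraries held 23837786, 25256003 and 32851570 estimated counts at 1.57 ng/L, against 27927337, 28166132 and 26160497 at 1.13 ng/L. Transcript lengths were also handled alike in both, with an effective length above the true length for 12% to 12.7% of transcripts in these 6 libraries. Across genes, log2 CPM (reads of a gene per common library size) correlated at 0.91 to 0.918 within the groups and at 0.903 to 0.919 between them, so libraries of different groups were about as alike as libraries of 1 group (genes are not independent replicates). Marker genes of the whole body were measured: 31 of 32 genes of liver-secreted plasma proteins, 23 of 24 of skeletal muscle contraction and 14 of 15 of eye and lens passed the filter on low counts. Of 11 digestive and pancreatic genes, 4 passed it.

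Few genes were called as different between the 2 concentrations, and the steepest rises were mostly in genes nearly silent without EE2. Of 46999 genes tested with edgeR's quasi-likelihood F test, 21 (0.0447%) passed a Benjamini-Hochberg adjusted p of 0.05. Of these, 12 (0.0255%) were higher at 1.57 ng/L and 9 (0.0191%) were lower. An unadjusted p under 0.05 was reached by 2610 genes (5.55%), of which 1254 (2.67%) were higher and 1356 (2.89%) lower. The middle of the distribution was narrow: the quartiles of the log2 fold change, 1.57 over 1.13 ng/L, were -0.17 and 0.15 around a median of 0. Among 14397 genes with a mean of at least 10 CPM, 99 (0.69%) had a log2 fold change beyond 1 in either direction. Fitted on the 6 libraries alone, edgeR called 0 genes, with 2768 at an unadjusted p under 0.05. DESeq2 on all 18 libraries called 357, among them all 21, of which 105 were higher and 252 lower, a share of 29.4% higher against 57.1% in edgeR. With each library's trend of counts with transcript length removed, 12 were higher and 16 lower (42.9% higher). With pool A of the 1.13 ng/L group left out, edgeR called 13 genes.

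**Figure D1:**
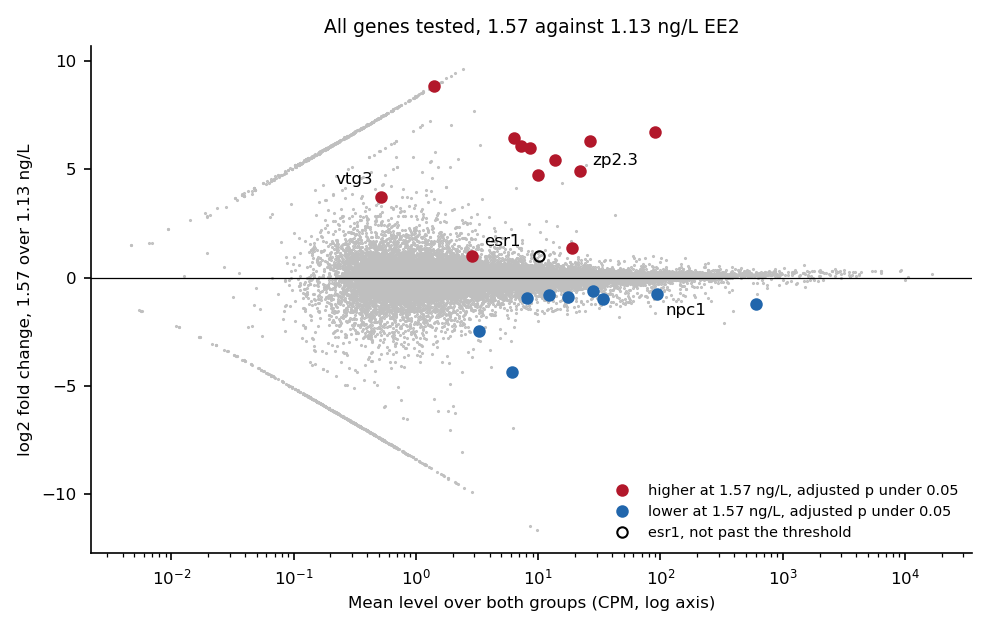
Every gene tested, with its mean level over both groups on the horizontal axis (CPM, log axis) and its log2 fold change, 1.57 over 1.13 ng/L, on the vertical axis. Filled points are the 12 genes past the threshold upwards and the 9 downwards, the open circle is esr1, and the straight diagonal rows of grey points are genes with 0 reads in 1 of the groups, whose fitted value depends on the prior count. The raised zp2.3 stands clear of the cloud at a log2 fold change of 4.91, while the lowered npc1 lies close under it at -0.74.

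The egg envelope gene zp2.3 rose steeply. It codes for a zona pellucida protein of the egg coat. It had 40.5, 53.7 and 33.5 CPM in the 1.57 ng/L pools, against 1.87, 1.86 and 0.484 CPM in the 1.13 ng/L pools. The lowest pool at 1.57 ng/L thus lay far above the highest at 1.13 ng/L. It averaged 42.6 ± 10.3 CPM at 1.57 ng/L and 1.40 ± 0.796 CPM at 1.13 ng/L (SD, n = 3 each), a ratio of means of 30.3. The log2 fold change was 4.91 ± 0.386 (SE; adjusted p = 0.000157 in edgeR), and it stayed past the threshold when any single library of the 6 was left out. The 3 solvent libraries together held 2 reads of zp2.3. In whole-body RNA, fewer cells that express a gene and less RNA per cell cannot be told apart, here and in all that follows.

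The vitellogenin gene vtg3, which codes for a yolk precursor, appeared at a much lower level. It had 0.877, 0.904 and 1.13 CPM at 1.57 ng/L, against 0, 0.163 and 0.0346 CPM at 1.13 ng/L. The pools did not overlap, yet the values rest on 84 reads in the 3 libraries at 1.57 ng/L and 6 reads at 1.13 ng/L. The log2 fold change was 3.75 ± 0.593 (SE; adjusted p = 0.0411 in edgeR). Leaving out any single library other than pool B at 1.13 ng/L ended this call (adjusted p between 0.108 and 0.196 in edgeR). Read per length, the 2 egg genes stood far apart in level, with zp2.3 at a mean of 36.6 TPM (abundance scaled for length and library total) and vtg3 at 0.378 TPM at 1.57 ng/L.

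Other egg coat genes with a symbol had overlapping or very low levels. The gene zp3d.1 of the same family had 1.5, 1.1 and 1.16 CPM at 1.57 ng/L, against 1.15, 1.37 and 1.14 CPM at 1.13 ng/L. Those ranges overlap, and its log2 fold change was 0.04 ± 0.260 (SE; adjusted p = 1 in edgeR). A further pair, zp3d.2 and vmo1b (a homologue of a hen egg outer layer protein), were too low to test. Of the 5 egg envelope and yolk genes matched by symbol, 3 were tested, and 2 of these were higher (median log2 fold change 3.75, against 0 over all genes tested). These genes had stood out in earlier results of the same libraries, so their direction is no independent finding. What the entries named only by a LOC number or an accession code for was not looked up. The list therefore need not hold every egg envelope or yolk gene measured.

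Of the genes that were silent in solvent and rose between these concentrations, 6 more have no gene symbol. The most abundant by counts was transcript XM_021599796.1, for which the reference table used here gives no gene. It had 130.8, 230 and 174 CPM at 1.57 ng/L, against 2.78, 2.12 and 0.0692 CPM at 1.13 ng/L. Its log2 fold change was 6.74 ± 0.580 (SE; adjusted p = 0.000656 in edgeR), the largest of the genes past the threshold that had reads in both groups.

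Transcript XM_021599798.1 had 42.7, 69.3 and 44.7 CPM at 1.57 ng/L, against 0.645, 1.21 and 0.104 CPM at 1.13 ng/L, a log2 fold change of 6.29 ± 0.45 (SE; adjusted p = 0.000157 in edgeR). The order of these transcripts turns round per length: at 1.57 ng/L, XM_021599798.1 averaged 70.5 TPM and XM_021599796.1 averaged 55.2 TPM, both above zp2.3. Neither had a read in the solvent libraries.

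The protein-coding genes LOC100135906 and LOC100135907 moved alike. LOC100135906 had 10.5, 29.2 and 11.1 CPM at 1.57 ng/L, against 0.272, 0.293 and 0.207 CPM at 1.13 ng/L. LOC100135907 had 18.1, 29.0 and 10.5 CPM at 1.57 ng/L, against 0.815, 1.11 and 0.207 CPM at 1.13 ng/L. Their log2 fold changes were 6.0 and 4.73 (adjusted p = 0.000185 and 0.00106 in edgeR). In both genes every 1.57 ng/L pool lay above every 1.13 ng/L pool.

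The transcripts XM_021594647.1 and XM_021598447.1 completed the group. XM_021594647.1 had 7.10, 16.4 and 13.9 CPM at 1.57 ng/L, against 0.102, 0.261 and 0.0346 CPM at 1.13 ng/L. XM_021598447.1 had 7.97, 22.2 and 12.3 CPM at 1.57 ng/L, against 0, 0.521 and 0.0692 CPM at 1.13 ng/L. Both passed the threshold (adjusted p = 0.00167 and 0.00408 in edgeR), with log2 fold changes of 6.47 and 6.09. All 6 of these symbol-less genes also held their call when any single library of the 6 was left out. A single transcript can gain or lose estimated reads to a near-identical sister sequence, so the change of an XM or XR entry may not be that of a whole gene.

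**Figure D2:**
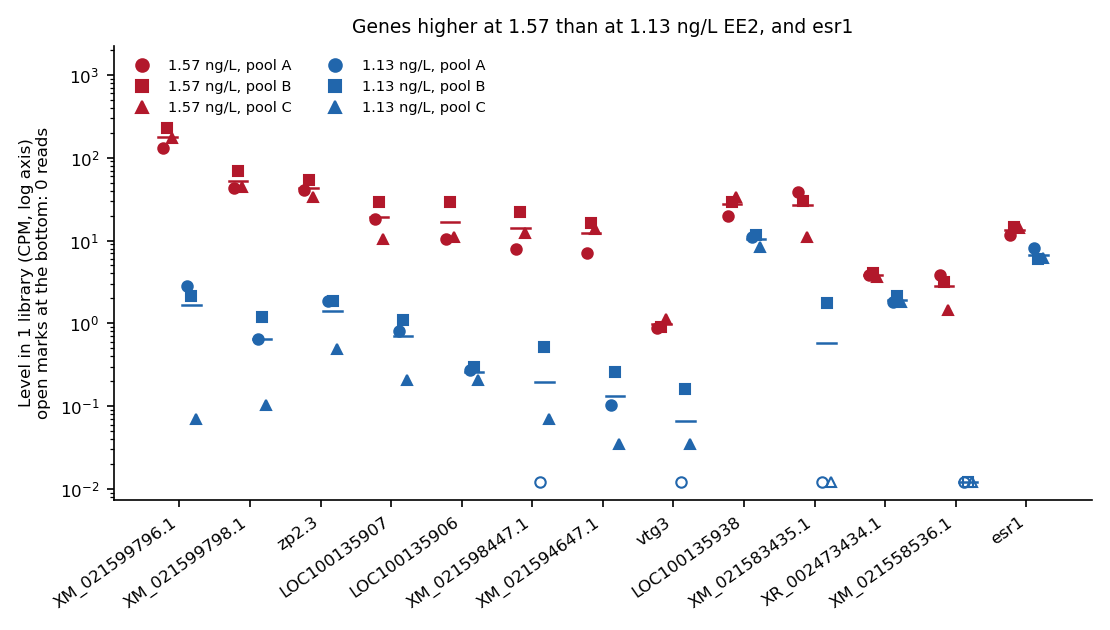
Levels in each library (CPM, log axis) of the 12 genes higher at 1.57 than at 1.13 ng/L and of esr1, with the 1.57 ng/L pools left of the 1.13 ng/L pools and a line at each mean. The 8 genes on the left had 3 reads or fewer in the solvent group as a whole. In all 8 the lowest 1.57 ng/L pool lies above the highest 1.13 ng/L pool, which holds for 5.87% of all genes tested. These 8 were chosen for a higher level at 1.57 than at 1.13 ng/L, so their separation is a description. Open marks at the bottom are libraries with 0 reads.

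Within a group, the pools differed in how far these silent genes had come on, and mostly in the same order for each gene. Summed over the 8 genes, levels were 258.5, 451.0 and 301.4 CPM in pools A, B and C at 1.57 ng/L, against 6.49, 7.52 and 1.21 CPM at 1.13 ng/L. Pool B was the highest of its group for 7 of the 8 genes at 1.57 ng/L and for 6 of 8 at 1.13 ng/L. Pool A at 1.57 ng/L was the lowest for 6 of 8, and so was pool C at 1.13 ng/L. The gap between the groups was wider than this spread, since the lowest sum was 258.5 CPM at 1.57 ng/L and the highest was 7.52 CPM at 1.13 ng/L. The 8 genes were chosen for a higher level at 1.57 than at 1.13 ng/L, so the gap is a description. XM_021599796.1 alone gave 130.8, 230 and 174 CPM of the sums at 1.57 ng/L. The pool with the highest sum at 1.57 ng/L also had the highest esr1 of its group (14.6 CPM), but at 1.13 ng/L the highest esr1 was in pool A (8.11 CPM).

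The estrogen receptor gene esr1, itself a target of estrogen in fish liver, was higher in every 1.57 ng/L pool but did not pass the threshold. It had 11.7, 14.6 and 14.1 CPM at 1.57 ng/L, against 8.11, 5.93 and 6.09 CPM at 1.13 ng/L. It averaged 13.4 ± 1.57 CPM at 1.57 ng/L and 6.71 ± 1.22 CPM at 1.13 ng/L (SD, n = 3 each), a ratio of means of 2.0. The log2 fold change was 1.00 ± 0.215 (SE), with an unadjusted p of 0.000349 and an adjusted p of 0.203 in edgeR. DESeq2 gave the same fold change with an adjusted p of 0.00155. Groups that do not overlap in this direction are found for 2761 of all genes (5.87%), and for 3192 (6.79%) in the other.

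The other estrogen receptors overlapped between the groups. The estrogen receptor beta gene esr2a had 1.09, 1.97 and 1.81 CPM at 1.57 ng/L, against 1.32, 0.912 and 1.31 CPM at 1.13 ng/L (log2 fold change 0.45 ± 0.401, SE). The second beta receptor, erb2, had 2.3, 3.38 and 3.27 CPM at 1.57 ng/L, against 3.16, 3.29 and 3.49 CPM at 1.13 ng/L (log2 fold change -0.15 ± 0.17, SE). The membrane receptor gene gper1 stood under 1 CPM in all 6 libraries. None of the 4 receptor genes passed the threshold in edgeR, and esr1 alone had an unadjusted p under 0.05. Per length, esr1 averaged 6.44 TPM at 1.57 ng/L and 3.43 TPM at 1.13 ng/L, above the other receptors in both groups. A further gene of sex steroid physiology is shbg, which codes for the plasma globulin that carries sex steroids. It had 112, 131.3 and 156 CPM at 1.57 ng/L, against 77.4, 69.8 and 64.4 CPM at 1.13 ng/L (adjusted p = 0.654 in edgeR), and was singled out after its values were seen. Its list, steroid synthesis and sex steroid receptors, had 15 genes tested, 11 of them above 0, with a median log2 fold change of 0.14. An unadjusted p under 0.05 in edgeR was found upwards for 2 of the 15 and downwards for 1 (2.67% and 2.89% of all genes).

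The remaining 4 raised genes were of other kinds. LOC100135938, a protein-coding gene already present in solvent, had 19.6, 29.2 and 33.2 CPM at 1.57 ng/L, against 11.2, 11.8 and 8.30 CPM at 1.13 ng/L. Its log2 fold change was 1.39 ± 0.206 (SE; adjusted p = 0.0285 in edgeR). Summed over the pools, both of its transcripts had more estimated reads at 1.57 ng/L (1133 and 1254, against 593 and 338 at 1.13 ng/L). These reads are not scaled for library depth. For the first transcript the pools overlapped, with 173, 340 and 620 reads at 1.57 ng/L, against 207, 206 and 180 at 1.13 ng/L. Leaving out any single library other than pool A at 1.57 ng/L ended the call (adjusted p between 0.0731 and 0.126 in edgeR).

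The other 3 were low at 1.13 ng/L and not elsewhere. Transcript XM_021558536.1 had 3.88, 3.18 and 1.44 CPM at 1.57 ng/L and 0 reads in all 3 libraries at 1.13 ng/L, so it was at least 75.3-fold higher when a floor of 3 reads over the group is used. Its solvent mean was 3.73 CPM. Transcript XM_021583435.1 had 38.8, 30.0 and 11.1 CPM at 1.57 ng/L, against 0, 1.76 and 0 CPM at 1.13 ng/L, with a solvent mean of 11.7 CPM. The non-coding entry XR_002473434.1 had 3.88, 4.05 and 3.61 CPM at 1.57 ng/L, against 1.80, 2.15 and 1.80 CPM at 1.13 ng/L, with a solvent mean of 4.21 CPM. For these entries it is the 1.13 ng/L group that stood apart from the other groups. The call of XR_002473434.1 ended when any single library was left out (adjusted p between 0.0542 and 0.17 in edgeR). That of XM_021583435.1 ended without pool A or B at 1.57 ng/L or pool A or C at 1.13 ng/L (between 0.108 and 0.17).

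Of the 9 genes that were lower at 1.57 ng/L, 3 have a symbol. The lysosomal gene npc1 codes for the membrane protein that moves cholesterol out of lysosomes and whose loss causes Niemann-Pick disease type C in humans. It had 71.4, 75.4 and 62.6 CPM at 1.57 ng/L, against 121, 115 and 114 CPM at 1.13 ng/L. The groups were well apart, with a log2 fold change of -0.74 ± 0.0894 (SE; adjusted p = 0.00408 in edgeR). The call held when any single library of the 6 was left out. Its lysosomal partner npc2, a soluble cholesterol carrier, lay lower in every 1.57 ng/L pool (99.7, 99.0 and 82.6 CPM, against 130.7, 136 and 132 CPM at 1.13 ng/L) and did not pass the threshold (adjusted p = 0.0992 in edgeR).

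The gene si:dkey-28n18.9 fell to 8.77, 9.71 and 8.15 CPM at 1.57 ng/L, against 15.7, 14.9 and 15.9 CPM at 1.13 ng/L (log2 fold change -0.80, adjusted p = 0.00275 in edgeR), and held its call when any single library was left out. The solute carrier gene slc22a31 fell to 4.72, 6.68 and 5.11 CPM at 1.57 ng/L, against 11.2, 11.1 and 9.41 CPM at 1.13 ng/L (log2 fold change -0.94, adjusted p = 0.0411 in edgeR). Leaving out any single library other than pool B at 1.57 ng/L ended this call (adjusted p between 0.0531 and 0.24 in edgeR). Its reads were split between 2 transcripts of like length, and the split differed by pool: XM_021586019.1 had 113, 0 and 181 estimated reads at 1.57 ng/L, against 330, 305 and 272 at 1.13 ng/L. In pool B at 1.57 ng/L all reads (170) were assigned to XM_021586020.1, so no difference between the groups in transcript use is shown. Genes filled in after these by unadjusted p, none past the threshold, were glulb, which codes for a glutamine synthetase (log2 fold change -0.77, adjusted p = 0.0566 in edgeR), plxdc2 (-0.34), the hormone-sensitive lipase gene lipea (-0.89) and mfsd1l (-0.51).

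The largest fall in absolute level was that of LOC110529383, a protein-coding gene. It had 379, 421 and 299 CPM at 1.57 ng/L, against 859, 879 and 809 CPM at 1.13 ng/L, and a solvent mean of 105 CPM. The log2 fold change was -1.21 ± 0.165 (SE; adjusted p = 0.0124 in edgeR), and the call ended without pool A or C at 1.57 ng/L or pool A or B at 1.13 ng/L (adjusted p between 0.0569 and 0.0797). LOC110525260 had 12.7, 12.3 and 12.1 CPM at 1.57 ng/L, against 23.8, 23.2 and 21.7 CPM at 1.13 ng/L (log2 fold change -0.89, adjusted p = 0.00619 in edgeR), and its call held when any single library was left out. LOC110493739 and LOC110491897 fell by 0.96 and 0.62 on the log2 scale (adjusted p = 0.0312 and 0.0442 in edgeR). The call of LOC110493739 ended when any single library was left out (adjusted p between 0.0534 and 0.174 in edgeR), and that of LOC110491897 with any but pool C at 1.13 ng/L left out (between 0.148 and 0.217).

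The 2 single transcripts among the lowered genes had unlike profiles. XM_021614614.1 had 1.17, 1.14 and 0.677 CPM at 1.57 ng/L, against 7.13, 5.47 and 4.01 CPM at 1.13 ng/L (log2 fold change -2.47, adjusted p = 0.0355 in edgeR). Its solvent mean was 0.615 CPM, so the 1.13 ng/L group stood apart. Leaving out any single library other than pool C at 1.13 ng/L ended the call (adjusted p between 0.122 and 0.18 in edgeR). XM_021624596.1 had 0, 0.943 and 0.734 CPM at 1.57 ng/L, against 13.6, 8.44 and 13.1 CPM at 1.13 ng/L (log2 fold change -4.33, adjusted p = 0.0124 in edgeR). All 5 other groups averaged between 8.83 and 14.8 CPM, so here it is the 1.57 ng/L group that stood apart. The call ended without pool C at 1.57 ng/L (adjusted p = 0.0753 in edgeR) or pool A at 1.13 ng/L (0.0538).

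**Figure D3:**
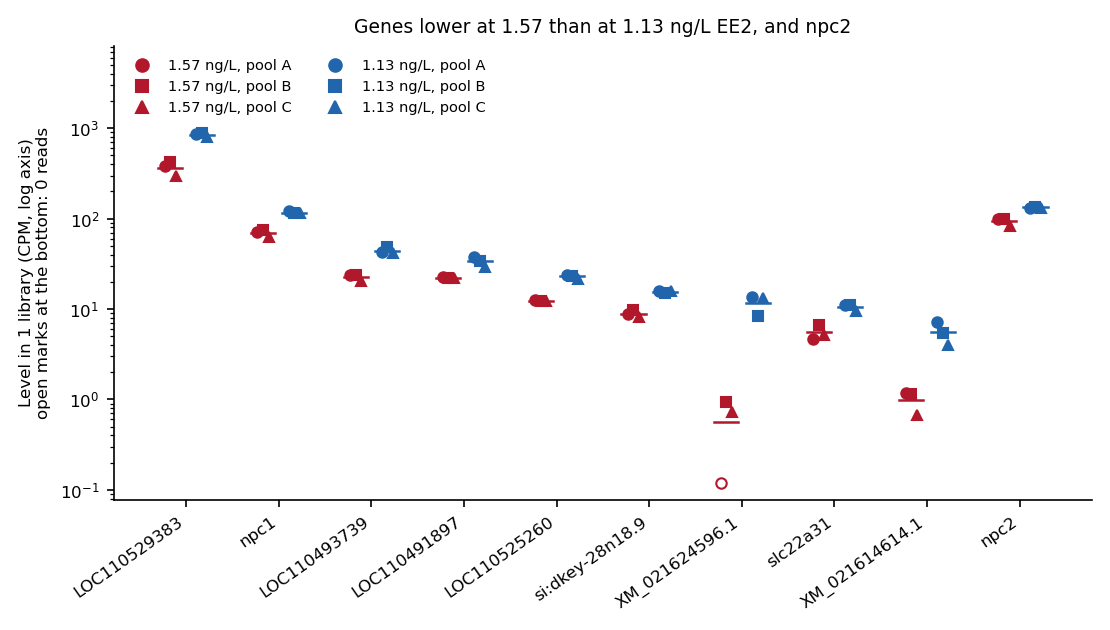
Levels in each library (CPM, log axis) of the 9 genes lower at 1.57 than at 1.13 ng/L and of npc2, with the 1.57 ng/L pools left of the 1.13 ng/L pools and a line at each mean. The groups are apart for every gene shown, which holds downwards for 6.79% of all genes tested. The 9 genes were chosen for a lower level at 1.57 than at 1.13 ng/L, and npc2 by a rule that requires no overlap. Their separation is therefore a description. The means of npc1 were 69.8 CPM at 1.57 ng/L and 117 CPM at 1.13 ng/L. The open mark is a library with 0 reads.

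Set on the whole concentration series, the raised and the lowered genes took different places. Of the 12 raised genes, 11 had a mean at 1.57 ng/L that lay between those at 1.13 and 6.22 ng/L, against 47.4% of all genes. The same held for 8 of the 9 lowered genes, so this measure did not separate raised from lowered genes. A mean that rose at every step from solvent to 16.3 ng/L was found for 9 of the 12, against 0.9% of all genes, and 6 also rose on to 55.1 ng/L. The 12 were chosen for a higher level at 1.57 than at 1.13 ng/L, which fixes 1 of these steps, and the shares of all genes carry no such condition, so the counts are a description. For zp2.3 the means were 0.0436, 1.40, 42.6, 242, 573 and 687 CPM from solvent to 55.1 ng/L. The means of vtg3 were 0.0468, 0.0658, 0.970, 9.40, 24.4 and 24.4 CPM. For vtg3 the solvent and 1.13 ng/L means rest on 2 and 6 reads, a ratio of 1.56 with a 95% counting interval of 0.279 to 15.8, so that a rise at 1.13 ng/L was not detectable at this depth. Those of esr1 were 2.83, 6.71, 13.4, 24.3, 35 and 37.9 CPM. Levels in the solvent and 55.1 ng/L libraries come from a quantification whose effective lengths followed length alone, unlike those of the other groups.

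The lowered genes had another order. For 8 of the 9 the mean at 1.57 ng/L lay between the solvent mean and that at 1.13 ng/L. The order 1.13 over 1.57 ng/L over solvent was found for 22.5% of all genes. The choice of the 9 fixes the order of 1.13 and 1.57 ng/L, and the share of all genes carries no such condition. By the same test, 8 of the 9 were higher at 1.13 ng/L than in solvent (4.89% of all genes were). The comparison with solvent shares the 1.13 ng/L libraries with the present one, so the values are given side by side only. For npc1 the means were 46.9 CPM in solvent, 117 at 1.13, 69.8 at 1.57, 35.9 at 6.22, 39.1 at 16.3 and 33.2 CPM at 55.1 ng/L. The 1.13 ng/L group was the highest of the 6 for npc1 and the 1.57 ng/L group the second highest. The gene npc2 also had its highest mean at 1.13 ng/L, with 59.9, 133, 93.75, 84.1, 89.8 and 94.9 CPM over the same series. It differed at the higher concentrations, where npc2 stayed above its solvent mean and npc1 lay under its own. LOC110529383 had 105, 849, 366, 126, 329 and 269 CPM over the same series, again with its highest mean at 1.13 ng/L. Over all genes, 3787 (8.06%) passed at 1.13 ng/L against solvent and 2006 (4.27%) at 1.57 ng/L against solvent. The part of the difference in effective lengths and depth in these comparisons with solvent was not tested.

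**Figure D4:**
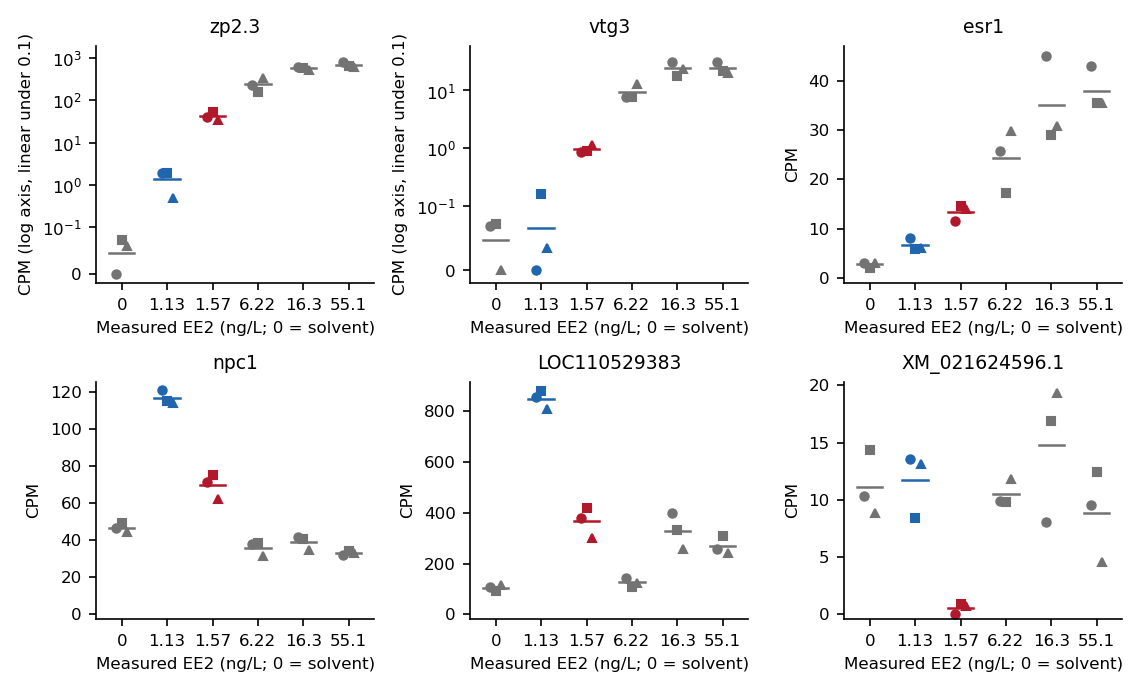
Levels in each library (points) and group means (lines) across measured EE2 for 6 genes, with 1.13 ng/L in blue, 1.57 ng/L in red and the other groups in grey. The axes of zp2.3 and vtg3 are logarithmic and linear under 0.1 CPM, the others linear. The means of zp2.3 and esr1 are higher at each of the 2 concentrations than at the one before, vtg3 is near 0 in solvent and at 1.13 ng/L and higher at 1.57 ng/L, npc1 and LOC110529383 have their highest mean at 1.13 ng/L, and XM_021624596.1 is nearly absent at 1.57 ng/L alone.

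Genes that differed from solvent at 6.22, 16.3 or 55.1 ng/L were chosen by contrasts whose group means do not use the 1.57 and 1.13 ng/L libraries, and were then read in the present comparison. Both come from the same model of 18 libraries and share its estimate of the spread, so they are not independent, and without the other libraries the comparison has 0 calls in edgeR (2768 genes at an unadjusted p under 0.05). Of the 180 genes raised at the higher concentrations (0.383% of those tested), 9 were higher and 2 lower at 1.57 than at 1.13 ng/L. That is 5.0% higher and 1.11% lower, against 0.0255% and 0.0191% of all genes. A log2 fold change above 0 was found for 126 (70.0%), against 49.8% of all genes. The median was 0.11, and the groups were apart upwards for 49 of the 180 and downwards for 11 (5.87% and 6.79% of all genes), the second a share near that of all genes. Chosen at 55.1 ng/L alone, 107 genes were raised, of which 9 were higher and 2 lower. Some of the 180 did not rise with concentration: fus averaged 35.5, 80.6, 82.0, 41.6, 93.1 and 38.9 CPM from solvent to 55.1 ng/L. Libraries of solvent, 6.22 and 55.1 ng/L held at most 17076432 estimated counts. Those of 1.13, 1.57 and 16.3 ng/L held at least 19679734. The part of depth and effective lengths in the choice of these genes was not tested. Of the 94 genes lowered at the higher concentrations (0.2% of those tested), 0 were higher and 1, npc1, was lower in edgeR (1.06%, against 0.0191% of all genes). Among the 94, 35 (37.2%) lay above 0, with a median of -0.06. Of these 94, an unadjusted p under 0.05 was found upwards for 2 and downwards for 17 (2.67% and 2.89% of all genes). The first is a share near that of all genes. The groups were apart upwards for 4 of the 94 and downwards for 23 (5.87% and 6.79% of all genes).

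Most of the calls among these genes fell on those that are silent without EE2. Among the 180 raised genes, 21 had 3 reads or fewer in solvent as a whole, and of these 8 were higher at 1.57 ng/L and 18 lay above 0, with a median log2 fold change of 3.75. The other 159 had 1 gene that was higher, LOC100135938, and a median of 0.09. Summed over the 21 genes, levels were 274, 466 and 321 CPM at 1.57 ng/L, against 21.8, 18 and 7.47 CPM at 1.13 ng/L. The sums averaged 354 ± 100.2 CPM at 1.57 ng/L and 15.7 ± 7.4 CPM at 1.13 ng/L (SD, n = 3 each). A few entries made up much of them. XM_021599796.1 alone averaged 178.5 CPM at 1.57 ng/L. At 1.13 ng/L, XM_021566256.1 and LOC110492113 averaged 4.25 and 2.73 CPM, and neither rose steadily with concentration. In the other groups the mean sum was 0.414 CPM in solvent, 2515 CPM at 6.22 ng/L, 5659 CPM at 16.3 ng/L and 5613 CPM at 55.1 ng/L. Among the silent genes that did not pass, transcript XM_021598448.1 averaged 0.560 CPM at 1.57 ng/L with 0 reads at 1.13 ng/L, and then 59.3 CPM at 6.22 ng/L, 237 CPM at 16.3 ng/L and 252 CPM at 55.1 ng/L.

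**Figure D5:**
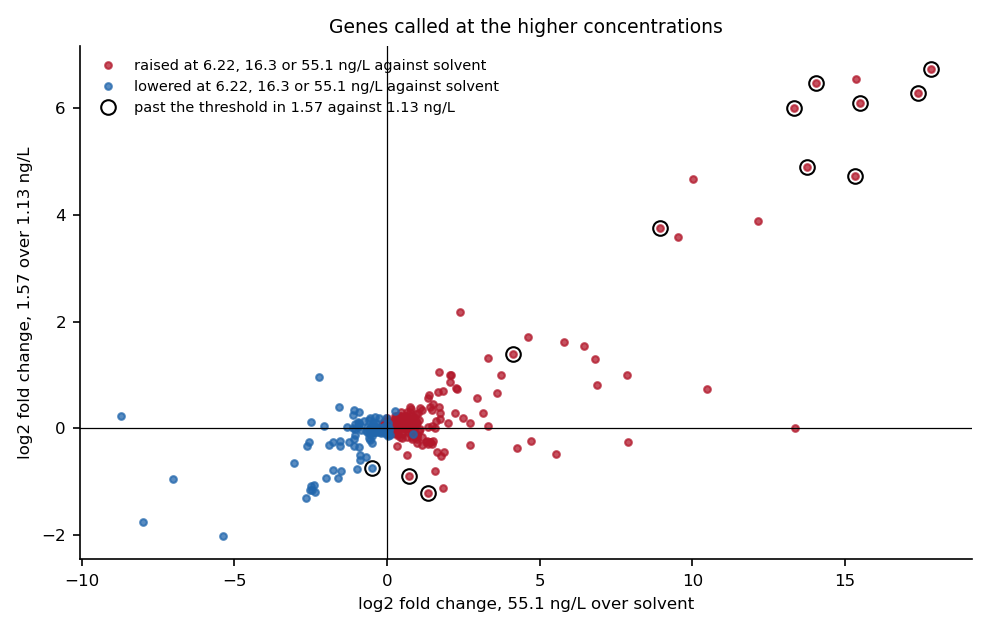
The 180 genes raised and 94 lowered at 6.22, 16.3 or 55.1 ng/L against solvent, with the log2 fold change of 55.1 ng/L over solvent on the horizontal axis and that of 1.57 over 1.13 ng/L on the vertical axis. Black rings mark the 12 genes past the threshold in 1.57 against 1.13 ng/L. The 8 silent genes past the threshold sit at the top right, while other silent genes reach down to -0.49 (XR_002471699.1). Fitted values of genes with 0 solvent reads depend on the prior count.

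Of the genes that had stood out with EE2 in earlier results of these data, 4 of 19 were higher here, namely LOC100135906, LOC100135907, XM_021599796.1 and XM_021599798.1, against 0.0255% of all genes. These 19 were picked on the same libraries, so their direction is not independent evidence. The rest did not pass. The gene fd6d had 38.2, 36.9 and 44.9 CPM at 1.57 ng/L, against 26.5, 23.6 and 24.1 CPM at 1.13 ng/L (log2 fold change 0.69, adjusted p = 0.0965 in edgeR). The lectin receptor gene cd209 had 13.3, 11.4 and 14.8 CPM at 1.57 ng/L, against 6.62, 12 and 4.98 CPM at 1.13 ng/L, with overlap. The inositol oxygenase gene miox had 5.72, 15.9 and 10.6 CPM at 1.57 ng/L, against 6.79, 6.35 and 5.95 CPM at 1.13 ng/L, also with overlap. The log2 fold changes of the other members with reads, apart from these and the 4 raised ones, lay between -0.52 (rasd1) and 0.66 (slc6a14).

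Besides npc1, none of the 25 lysosomal genes tested passed the threshold in edgeR. Of the 25, 9 lay above 0, and 9 of the 25 had an unadjusted p under 0.05 downwards and 1 upwards, against 2.89% and 2.67% of all genes. The median log2 fold change was -0.15. Named after their values were seen, the cathepsin genes ctsa, a lysosomal carboxypeptidase, and ctsz had log2 fold changes of -0.38 and -0.53 (adjusted p = 0.224 and 0.249 in edgeR). The lysosomal phospholipase gene pla2g15 had 144, 157 and 115 CPM at 1.57 ng/L, against 227, 223 and 262 CPM at 1.13 ng/L (adjusted p = 0.718 in edgeR). For 15 of the 25 lysosomal genes the means were ordered 1.13 over 1.57 ng/L over solvent, against 22.5% of all genes. This order was not particular to lysosomal genes. It was found for 11 of 14 collagens and 17 of 31 genes of liver-secreted plasma proteins, but for 0 of 36 cytosolic ribosome genes. The part of depth and effective lengths of the solvent libraries in this order was not tested.

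Genes of liver-secreted plasma proteins had no member past the threshold among 31 tested, with 5 downwards and 0 upwards at an unadjusted p under 0.05 (2.89% and 2.67% of all genes) and a median log2 fold change of -0.11. The apolipoprotein gene apoe, named after its values were seen, had 68.4, 65.6 and 54.0 CPM at 1.57 ng/L, against 89.5, 89.8 and 97.9 CPM at 1.13 ng/L and a mean of 21.9 CPM in solvent (adjusted p = 0.821 in edgeR). The transferrin gene tfa, which codes for the iron carrier of plasma, averaged 624 CPM at 1.57 ng/L and 867 CPM at 1.13 ng/L (adjusted p = 0.850 in edgeR). Of the 31 genes, 13 lay above 0, and the groups were apart downwards for 10 and upwards for 2 (6.79% and 5.87% of all genes). The part of the liver's share of the whole-body RNA in the results on egg genes was not tested.

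Genes of the circadian clock had no call in edgeR. Of 16 tested, 15 had a log2 fold change above 0, with a median of 0.25, and 6 had an unadjusted p under 0.05, all upwards (2.67% of all genes). The transcriptional repressor gene bhlhe40, which fills the list of named raised genes, had 37.6, 22.2 and 25.6 CPM at 1.57 ng/L, against 19.8, 19.9 and 17.2 CPM at 1.13 ng/L (log2 fold change 0.59, adjusted p = 0.352 in edgeR). The highest 1.57 ng/L value was that of pool A, as it was for dbpb, nr1d4b and nfil3 (28.4, 26.7 and 14.5 CPM), named after their values were seen.

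Of 14 eye and lens genes tested, 6 had an unadjusted p under 0.05 downwards and 3 upwards (2.89% and 2.67% of all genes), and none passed the adjusted threshold in edgeR. The lens crystallin gene crygn2, named after its values were seen, had 29.6, 41.4 and 42.0 CPM at 1.57 ng/L, against 62.1, 64.9 and 88.7 CPM at 1.13 ng/L. The gene rpe65a, which codes for an enzyme of the visual cycle in the retinal pigment epithelium, had 27.5, 21.0 and 19.3 CPM at 1.57 ng/L, against 19.8, 11.8 and 9.72 CPM at 1.13 ng/L, with overlap.

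No other list held a member past the threshold in edgeR, so that 21 of the 24 lists had 0. Collagens had a median log2 fold change of -0.12 (3 of 14 above 0) and skeletal muscle contraction 0.16 (18 of 23 above 0). Erythrocyte genes had a median of 0.31 (8 of 8 above 0), with unadjusted p under 0.05 for 1, the transferrin receptor gene tfr1a. Cytosolic ribosome and mitochondrial respiratory chain genes had medians of 0.10 and 0.16 (34 of 36 and 30 of 35 above 0, against 49.8% of all genes). Endoplasmic reticulum genes for folding and export, the machinery for secreted proteins, had 0.07 (25 of 40 above 0). With the length trend removed these 3 medians were 0.05, 0.11 and 0.03. The groups were apart upwards for 8 ribosomal and 11 respiratory genes and downwards for 0 in both lists (5.87% and 6.79% of all genes). Among detoxification genes, the cytochrome P450 gene cyp2k4 had 4.47, 4.56 and 5.16 CPM at 1.57 ng/L, against 1.70, 1.37 and 1.97 CPM at 1.13 ng/L (log2 fold change 1.49 ± 0.252, SE; adjusted p = 0.0571 in edgeR). Its solvent mean was 3.85 CPM, so the 1.13 ng/L group was the low one. The muscle gene myoz1a, the immune receptor gene cd226 and the tubulin gene tubb6, which complete the named raised genes, had log2 fold changes of 0.40, 0.52 and 0.49 without passing (adjusted p = 0.249, 0.294 and 0.403 in edgeR). Their means at 1.13 ng/L (96.5, 4.2 and 10.8 CPM) lay under those in solvent (133, 6.3 and 13.2 CPM). At 1.57 ng/L they averaged 127, 6.0 and 15.2 CPM, above the solvent mean for tubb6 alone.

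Of the 21 calls, 11 held when any single library of the 6 was left out: zp2.3, the 6 symbol-less genes silent in solvent, XM_021558536.1, npc1, si:dkey-28n18.9 and LOC110525260. Of these, 10 also held in every other alternative except the fits of the 6 libraries. XM_021558536.1 lost its call with limma on log2(TPM + 1), a scale that understates the change of low genes (log2 fold change 0.79, adjusted p = 0.334). On that scale vtg3 also lost its call (0.42, adjusted p = 0.766 with limma). All 21 kept their sign in every one of the 17 alternatives that held them. In the fit of the 6 libraries alone the adjusted p of zp2.3 was 0.105 and that of npc1 0.131 in edgeR, with log2 fold changes of 4.91 and -0.74.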

How the data were processed

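Libraries were poly(A), strand-specific RNA sequencing of whole-alevin pools, per the labels' protocols. Per the submitters' processing notes, the authors used Trimmomatic 0.38, kallisto and DESeq2; other versions and the genome build are not given in the sources used here. The authors' deposited table of each library gives, per the file headers, estimated counts, TPM, length and effective length for 79244 RefSeq transcripts. The whole-series tables were not used.

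Gene names came from matching accessions, version ignored, to the RefSeq gene table of assembly USDA_OmykA_1.1: 42410 transcripts (53.5%) matched, 1083 with the same version. Estimated counts were summed by gene and rounded, unmatched transcripts were kept singly, and the resulting 61973 features are called genes. Counts were filtered with filterByExpr, scaled by TMM and fitted with edgeR 4.0.16 (R 4.3.3), all 18 libraries in 1 model with 12 residual degrees of freedom, which all groups share as the estimate of spread. The code was tested on simulated counts with known changes. Of 100 genes changed 2-fold 41 were called, of 100 changed 4-fold 87 were, and 6 unchanged genes were called. Genes that differ by about 2-fold can therefore be missed. The changed genes were drawn from those averaging at least 1 CPM over the 18 libraries. Before the change, each simulated gene had 1 common mean in all groups. The shares called thus do not cover genes under 1 CPM in the groups compared. Alternatives used DESeq2 1.42.0 and limma 3.58.1. Levels are CPM with TMM factors, and TPM was summed by gene. Standard errors come from the fold change and its F value. Floors and counting intervals use reads over library totals and cover counting error only.

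Named were, among genes past the threshold with at least 1 CPM and no overlap, the 6 largest rises and falls and the 8 largest with a symbol, filled by unadjusted p, plus all egg, estrogen receptor and earlier EE2 genes and called members of the 24 lists. From the lists, 32 symbols that matched by shape alone were left out. Members and lists were chosen with earlier results of these data known. No pairing of the libraries by replicate letter was seen.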

Additional observations from a re-analysis of the deposited data

How the results depend on the processing

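With DESeq2 in place of edgeR, 357 genes passed, 105 higher and 252 lower at 1.57 than at 1.13 ng/L. Limma on TPM plus 0.1 called 62 (47 lower, 24.2% higher), and on TPM plus 1 it called 96 (81 lower, 15.6% higher). With the trend of counts with length removed, 12 were higher and 16 lower (42.9% higher, against 57.1%), and with single transcripts 5 were lower. The fits of the 6 libraries alone called 0, without a replicate block (2768 genes at an unadjusted p under 0.05) or with it (2686); fewer libraries and residual degrees of freedom enter these fits. With a replicate block over 18 libraries 17 genes passed, 16 of them among the 21. Deviations of same-lettered pools correlated at -0.003, -0.015 and 0.042, so no pairing by letter was seen, though a weak one could go unseen. DESeq2 size factors, a stricter filter and no filter gave 20, 20 and 19 calls.

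Leaving out each library in turn gave 13 to 21 calls, 9 to 13 higher and 4 to 11 lower. The total moved beyond 1.5 times without pool A at 1.13 ng/L (13). The lower calls did so without pool A or B at 1.13 ng/L (4 each) or pool A at 1.57 ng/L (5). Over these same fits some small log2 fold changes switched sign: bsnd (-0.41 to 0.15), erb2 (-0.25 to 0.01), gbrl2 (-0.15 to 0.06), gper1 (-0.19 to 0.11), pnp4b (-0.0 to 0.29), styk1b (-0.43 to 0.14) and zp3d.1 (-0.11 to 0.12, and -0.07 and -0.03 on TPM plus 0.1 and plus 1). Selecting the genes of higher concentrations at an adjusted p of 0.01 left 1 of the raised and 0 of the lowered genes lower at 1.57 ng/L. Why these counts differ was not tested. Values under about 1 CPM, such as vtg3 at 1.13 ng/L, rest on few reads.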

Other observations

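Of the 94 genes lowered at 6.22, 16.3 or 55.1 ng/L, the 17 that had an unadjusted p under 0.05 downwards at 1.57 against 1.13 ng/L were mostly above the solvent level at both low concentrations. In 15 of the 17 the mean was higher at 1.57 ng/L than in solvent and higher again at 1.13 ng/L, against 22.5% of all genes. The choice of these genes fixes the order of 1.57 and 1.13 ng/L and also used the solvent libraries, so the count is a description. The gene leg1, known in zebrafish for liver growth and named, like the others here, after its values were seen, is 1 of them. It averaged 169 CPM at 1.57 ng/L and 322 CPM at 1.13 ng/L, with 106 CPM in solvent and 34.8 CPM at 55.1 ng/L (adjusted p = 0.612 in edgeR for 1.57 against 1.13 ng/L). The gene pla2g15 had the same order, with means of 139 CPM at 1.57 ng/L and 237 CPM at 1.13 ng/L, then 65.2 CPM in solvent and 19.3 CPM at 55.1 ng/L. Both genes were above the solvent level at the low concentrations and under it at 55.1 ng/L. Effective lengths in the solvent and 55.1 ng/L libraries were computed differently from those at 1.57 and 1.13 ng/L, and the part of this in the order was not tested.

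In some list members, named here after their values were seen, 1 pool stood well above the others. The lysosomal membrane gene scarb2c had 35.7, 0.236 and 1.61 CPM at 1.57 ng/L, against 0.645, 0.684 and 0.761 CPM at 1.13 ng/L. The gene igfbp1a, which codes for an insulin-like growth factor binding protein, had 4.34, 1.89 and 1.64 CPM at 1.57 ng/L, against 0.951, 1.27 and 0.968 CPM at 1.13 ng/L (adjusted p = 0.805 in edgeR), so that its other 1.57 ng/L pools also lay above every 1.13 ng/L pool. In both genes the highest value was that of pool A at 1.57 ng/L. That pool also held the highest values of the clock genes named above, most of them picked in the same way. How often this pool was the highest over all genes was not tested.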
